A study of Mus musculus and Homo sapiens with 10 samples.

Results

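The gene response of primed human embryonic stem cells (hESCs) to vitamin C (vitC) was described from 1 untreated and 1 vitC-treated library of H9, an established hESC line. Both libraries came from cultures kept in KSR/FGF medium with 20% knockout serum replacement and 10 ng/ml bFGF, and vitC was given to one of them at 100 µg/ml for 24 h. Of the 35720 gene rows, 20485 (57.3%) exceeded the floor of the deposited table in 1 or both of the libraries, and these are the genes described. Of these, 17549 were above it in both, 1315 in the control alone and 1621 in the vitC library alone, where they reached at most 39 and 37 reads. The study's other 8 libraries, 4 control and 4 vitC at the same dose and time, are of mouse E14 ESCs (mESCs) in 2i medium, which holds LIF and inhibitors of MEK and GSK3. The study's methods describe primed H9-NK2 cells, which carry doxycycline-inducible KLF2 and NANOG transgenes, in this medium, whereas the labels give H9, so reads of those genes could include a transgene. KLF2 had 3 reads in each library. The RNA label of the hESC libraries is polyA, and that of the mESC libraries is total RNA.

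Primed hESCs resemble the epiblast shortly before gastrulation, and are kept in that state by FGF and by Activin or Nodal signalling. Nodal is a TGF-beta family ligand that switches on its own gene and those of its secreted inhibitors, LEFTY1 and LEFTY2, and at higher activity directs cells towards mesendoderm. VitC keeps the iron of 2-oxoglutarate-dependent dioxygenases in its reduced form. This enzyme class holds the TET enzymes, the Jumonji (JmjC) histone demethylases, the prolyl hydroxylases that mark HIF for destruction and those that mature collagen.

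The primed pluripotency markers were read deeply in both libraries. SOX2 had 5423 control and 6083 vitC reads, LIN28A had 18081 and 20744, and DNMT3B had 7464 and 7937. POU5F1, 54.9% of whose 50-base words occur in another annotated gene, had 1034 and 1173 reads. The log2 ratios of vitC over control for these 4 genes lay between -0.09 and 0.02. The naive-state markers KLF17 and DPPA5 had no read in either library, and TFCP2L1 had 7 and 9. Genes used to mark fibroblasts were read as well: COL1A1 had 18164 and 18881 reads and COL1A2 had 6443 and 6542, while DCN had none and LUM had 7 and 17. The 18 fibroblast genes summed to 59860 control and 65264 vitC reads, and the 15 with at least 50 reads had a median log2 ratio of -0.0088; the part of such cells in the results below was not tested.

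Values were deposited on a variance-stabilised scale, from which whole reads were recovered, 15367652 for the control and 17188555 for the vitC library. On the deposited scale 0 genes were at least 1.5-fold higher (0% of 20485) and 3 were at least 1.5-fold lower (0.0146%), among them EIF3CL. That scale compresses low genes: a true 1.5-fold rise would appear as 0.02 at 10 control reads, 0.08 at 100, 0.23 at 1000 and 0.47 at 10000, against the 0.58 that the log2 of 1.5 requires. Differences are therefore given below as log2 ratios of vitC over control reads, scaled by the authors' size factors, with 1 read added to each. Each interval in brackets is the 95% exact interval of that ratio with 2 reads taken as 1 fragment, and covers counting error only. With 1 library per condition there was no replicate check and no test, and every ratio below compares these 2 libraries, not the conditions.

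Most genes lay close to equal in both libraries. Of the 13219 genes with at least 50 reads over both libraries, 1093 had a log2 ratio of 0.32 or more (8.27%), the size that counted as a small difference, and 846 lay as far below 0 (6.4%). At 1.5-fold there were 330 higher (2.5%) and 263 lower (1.99%), and at 2-fold 77 higher (0.582%) and 54 lower (0.409%). Of the 8856 genes with at least 500 reads, 7 were at least 1.5-fold higher (0.079%) and 11 at least 1.5-fold lower (0.124%). The median log2 ratio was 0.0028 over the genes with at least 50 reads. The remaining 7266 genes had under 50 reads. They are counted, and only single ones are named, with their reads.

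The spread of the ratios narrowed with depth. From 100 reads up it was wider than the counting error of a gene of median reads in the bin. The middle 95% of genes ran from -0.55 to 0.62 from 100 to under 1000 reads, from -0.25 to 0.26 from 1000 to under 10000 reads and from -0.20 to 0.13 at 10000 reads and over. Counting error alone gave -0.40 to 0.40, -0.17 to 0.17 and -0.06 to 0.06 for a gene of median reads in those bins. Genes below the median of a bin have wider counting error, which adds to the spread of the bin and was not separated. What part of any further excess comes from vitC and what part from the cultures or library preparation cannot be told apart with 1 library per condition.

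**Figure D1:**
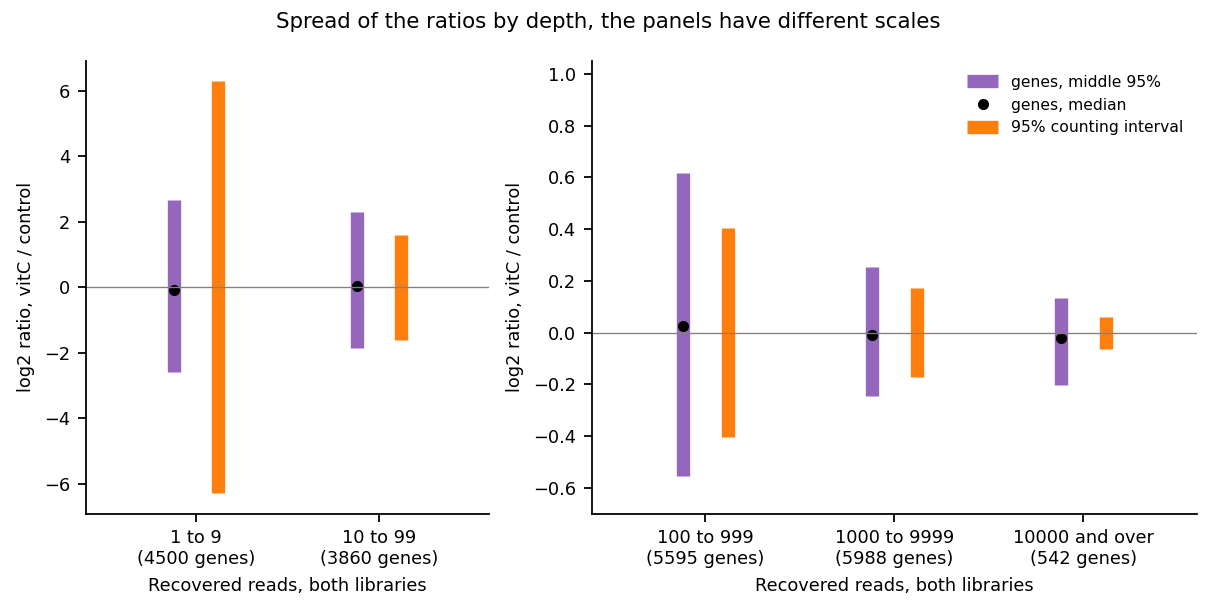
Log2 ratio of vitC over control by depth; the purple bars span the middle 95% of genes in each bin, the points are the medians, and the orange bars are the 95% counting interval at the median reads of the bin, with 2 reads as 1 fragment. Above 10000 reads the genes span -0.20 to 0.13 against a counting interval of -0.06 to 0.06.

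Several genes of the Nodal pathway had more reads in the vitC library. NODAL, the ligand, had 323 control and 576 vitC reads, a log2 ratio of 0.66 (0.37 to 0.94). It is a protein-coding gene on the minus strand of chromosome 10, bases 70431936 to 70447951 in hg38. LEFTY1, an extracellular inhibitor of NODAL, had 2973 and 4152 reads, a log2 ratio of 0.30 (0.21 to 0.40). LEFTY2, its neighbour and paralog, had 3969 and 5379 reads, a log2 ratio of 0.26 (0.18 to 0.35). Among the 15 largest differences on the deposited scale, LEFTY1 and LEFTY2 were the genes with over 1000 reads. That scale favours genes with many reads, so this rank does not make their ratios the largest at their depth. Of the 6530 genes with at least 1000 reads, 64 were higher by at least the size that counted as a small difference. Neither LEFTY gene was among them. The middle 95% of genes of their depth reached 0.26, close to the ratio of LEFTY2. The LEFTY genes lie on chromosome 1, at 225886282 to 225911382 for LEFTY1 and 225936598 to 225941383 for LEFTY2, and share part of their sequence, so reads can be split between them: 54.7% of the 50-base words of LEFTY1 and 29.6% of those of LEFTY2 also occur in another annotated gene. NODAL shared none.

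Among other genes tied to this pathway, GDF3 and FOXD3 were read more thinly than NODAL, and CER1 more deeply. GDF3, a ligand of the same family, had 23 and 40 reads, a log2 ratio of 0.60 (-0.54 to 1.73). FOXD3, a transcription factor of the epiblast, had 62 and 120 reads, a log2 ratio of 0.77. CER1, a secreted Nodal and BMP antagonist, had 1288 and 1508 reads and a log2 ratio of 0.05 (-0.10 to 0.20).

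The list of WNT, BMP and TGF-beta feedback genes, to which NODAL, LEFTY1, LEFTY2 and CER1 belong, holds 24 genes, of which 23 had at least 50 reads. Of these, 19 had a ratio above 0 and 4 below it, and the median log2 ratio was 0.12, against 0.0028 over all genes with 50 reads. Only NODAL and NOTUM passed 1.5-fold, both higher; 5 members had a log2 ratio of 0.32 or more and 1 lay as far below 0. NOTUM, a secreted enzyme that inactivates WNT ligands, had 14 and 62 reads, a log2 ratio of 1.90 (0.76 to 3.40). The homeobox genes MSX1 and MSX2, which BMP signalling induces, had 201 and 338 reads and 309 and 448 reads, with log2 ratios of 0.57 and 0.36. ID4, an inhibitor of bHLH factors, had 226 and 322 reads and a log2 ratio of 0.33 (-0.02 to 0.69). The best-read WNT targets of the list were NKD1, with 1244 and 1699 reads (0.27), and AXIN2, with 1218 and 1488 (0.11). ID3, with the most reads of the BMP-responsive ID genes, had 2262 and 2683 reads and a log2 ratio of 0.07. The list kept a median of 0.11 when each member was set against the median of genes in its quartile of transcript length and GC content, and 19 of the 23 members were above it. This list was written with earlier results of these data known.

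A few genes of differentiated lineages had more vitC reads. Of 19 mesendoderm and endoderm genes 10 had at least 50 reads; 9 of those were above 0, the median was 0.04, and the list summed to 2303 control and 2829 vitC reads. MIXL1, which Nodal induces in mesendoderm, had 38 and 82 reads, a log2 ratio of 0.91 (0.11 to 1.80). HNF4A, a factor of endoderm and liver, had 28 and 55 reads (0.78, -0.15 to 1.86). FOXA2, an endoderm marker below 50 reads, had 7 and 35, a log2 ratio of 2.00 (0.39 to 4.01). EOMES had 165 and 208 reads (0.16), SOX17 32 and 37, GATA6 49 and 57 and T, the gene of Brachyury, 7 and 15. The part of such cells in the Nodal-pathway values was not tested, and in bulk samples more cells of a type and more RNA per cell cannot be told apart.

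Of 24 ectoderm and neural genes 18 had at least 50 reads, with 12 above 0, a median of 0.05 and sums of 75580 and 82993 reads, most of them from VIM, an intermediate filament gene with 31137 control reads, and NES, another, with 24441. PAX6, a neural and eye transcription factor, had 75 and 164 reads, a log2 ratio of 0.94 (0.36 to 1.53), and SOX1 had 334 and 396 (0.07). TFAP2A, shared by neural crest, surface ectoderm and trophoblast, had 171 and 119 reads, a log2 ratio of -0.70 (-1.20 to -0.20). Its relative TFAP2B had 18 and 38 reads (0.86, -0.31 to 2.23). Of 16 trophoblast and amnion genes only 6 had at least 50 reads, 3 above 0 and 3 below, and CDX2 had none.

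The pluripotency network itself had a median near 0. Of 29 core and primed pluripotency genes, all with at least 50 reads, 15 were above 0 and 14 below, and the median was 0.0044. Of the 29, 3 were at least 1.5-fold higher, NODAL, GDF3 and FOXD3, and 0 were lower. Over all genes with 50 reads these shares were 2.5% higher and 1.99% lower. NANOG had 643 and 847 reads, a log2 ratio of 0.22 (0.01 to 0.43). PODXL, a surface sialomucin and the most-read member, had 25924 and 26059 reads (-0.17), and OTX2 was the lowest member at -0.24 with 918 and 879. Of 20 naive pluripotency genes 14 were above the lowest value and 5 had 50 reads; of those VENTX (0.17) and KLF4 (0.18) were above 0, and KLF5 (-0.44) and TFAP2C (-0.37) below. SUSD2, a surface marker of naive cells, had 27 and 45 reads (0.54, -0.56 to 1.55). No naive gene passed 1.5-fold with 50 reads or more.

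**Figure D2:**
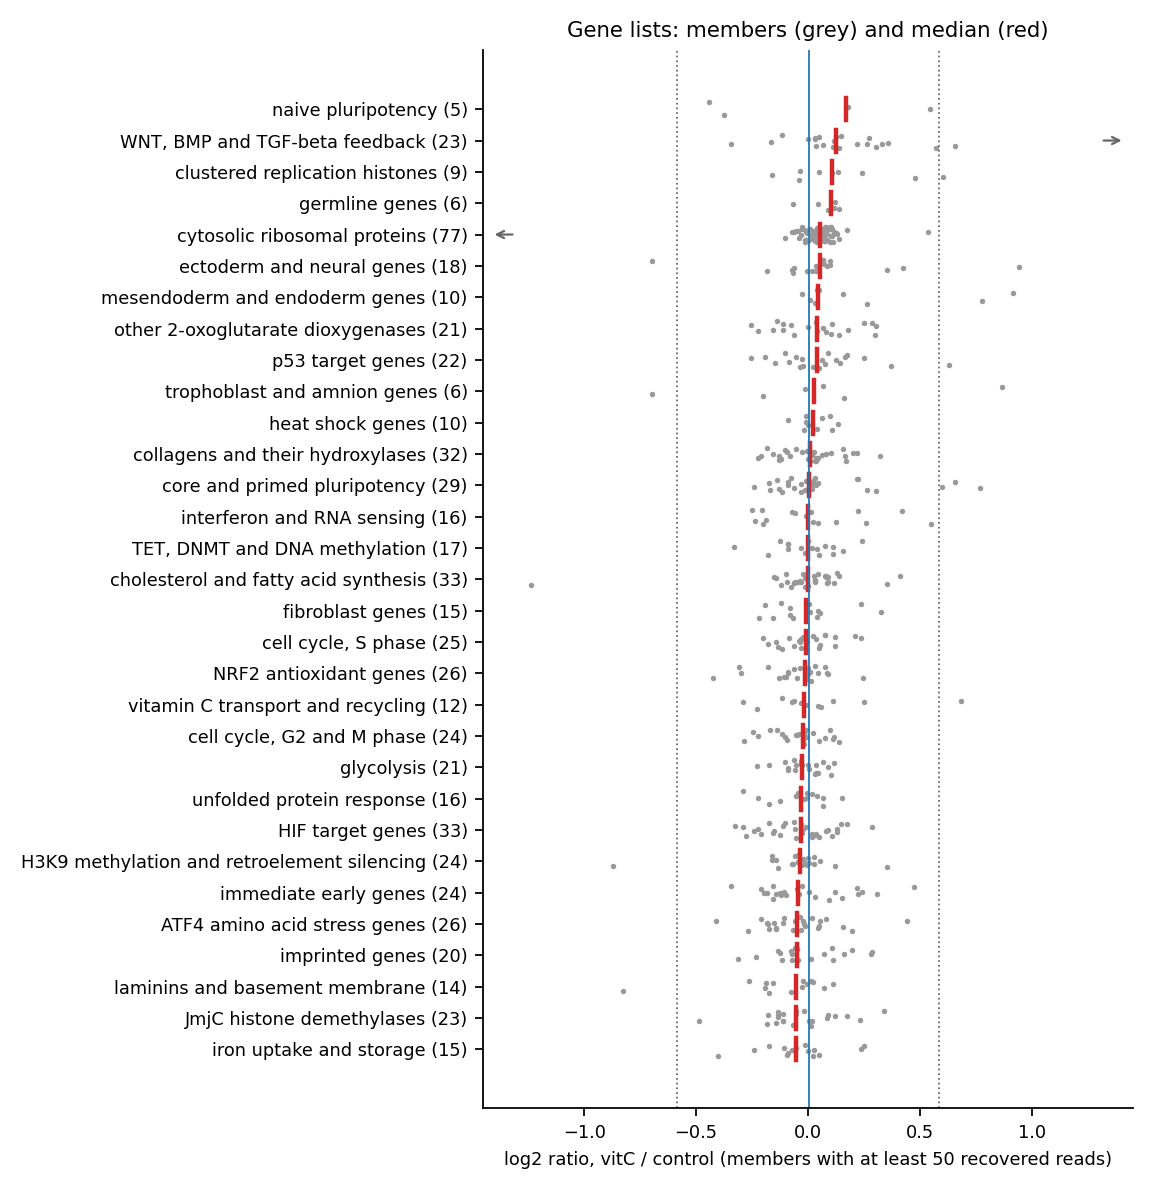
Log2 ratios of the members (grey points, at least 50 reads) and the median (red bar) of each gene list with 5 or more such members, other than the 385 ZNF genes, ordered by median, with the number of members after each name; the blue line is the median of all genes with 50 reads, the dotted lines mark 1.5-fold and arrows stand for members beyond 1.3. The 77 ribosomal protein genes crowd around 0.05, and the WNT, BMP and TGF-beta feedback genes lie mostly to the right, at a median of 0.12.

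The enzymes that use vitC, and those that carry it, showed little difference in transcript level. TET1 had 1423 and 1474 reads (-0.13), TET2 149 and 182 (0.11) and TET3 759 and 759 (-0.18). Of the 17 TET, DNMT and DNA methylation genes with 50 reads 8 were above 0 and none passed 1.5-fold. Of 23 JmjC histone demethylase genes 9 were above 0, the median was -0.05 and none passed 1.5-fold; the H3K9 demethylases KDM4A and KDM4C had 1377 and 1573 reads (0.01) and 259 and 271 (-0.11). KDM4D had the lowest ratio of that list, with 81 and 65 reads (-0.49, -1.22 to 0.21). Among 21 other dioxygenases 13 were above 0 and the median was 0.04, and EGLN2, a HIF prolyl hydroxylase, had 1375 and 1851 reads, a log2 ratio of 0.25 (0.11 to 0.40). It shares 95.8% of its 50-base words with another annotated gene, so that value is uncertain. SLC23A2, a sodium-dependent vitC transporter, had 552 and 575 reads (-0.12). GSTO2, a glutathione transferase able to reduce dehydroascorbate, had 20 and 37 reads (0.68, -0.52 to 1.95) and was the 1 of 12 vitC transport and recycling genes past 1.5-fold.

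The HIF target genes did not separate from the rest: of 33 with 50 reads 13 were above 0, none passed 1.5-fold, PFKFB4 alone lay 0.32 or more below 0 and the median was -0.03. LDHA, which makes lactate and is a HIF target, had 12175 and 14069 reads (0.03, -0.02 to 0.08). VEGFA had 429 and 531 reads (0.13) and EGLN3, the highest member, 312 and 430 (0.28). PFKFB4 was the lowest member, with 215 and 194 reads (-0.32). The 21 glycolysis genes spanned -0.23 for HK1 to 0.12 for PFKP, with 9 above 0. In the collagen list, with the hydroxylases that mature its products, 0 of 32 passed 1.5-fold, 18 were above 0 and the median was 0.01. P4HA1, a collagen prolyl hydroxylase subunit, had 939 and 1074 reads (0.02).

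Silencing factors and the gene groups they keep off were also close to level. Of 24 H3K9 methylation and retroelement silencing genes 18 were below 0 and the median was -0.04. DAXX, an H3.3 chaperone, was the 1 past 1.5-fold, with 38 and 23 reads (-0.87, -2.02 to 0.28). It shares 15.7% of its 50-base words with other annotated genes, so that value is uncertain. TRIM28, the KRAB corepressor, had 13705 and 14771 reads (-0.07). Of 33 germline genes 19 were above the lowest value and 6 had 50 reads, from -0.07 for TDRKH to 0.14 for STK31, with none past 1.5-fold. MAEL, a piRNA pathway gene, had 8 and 24 reads, whereas SMC1B had 9 and 0. Single genes of the 8-cell and X-linked cancer-testis lists had reads, 1 of 14 and 1 of 21 genes, both in the control alone with 1 and 3 reads. The 34 interferon and RNA-sensing genes held 16 with 50 reads, 8 above and 8 below 0, at a median of -0.00015. Of 385 zinc finger (ZNF) genes with 50 reads 12 were at least 1.5-fold higher and 11 lower, and the median was 0.03.

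Few genes of the remaining lists passed 1.5-fold. ACACA, which makes malonyl-CoA for fatty acid synthesis, had 91 and 43 reads, a log2 ratio of -1.24 (-2.05 to -0.48), while the 33 genes of cholesterol and fatty acid synthesis had a median of -0.0011. GDF15, a stress-induced cytokine, had 70 and 123 reads (0.63, 0.03 to 1.29), and the 22 p53 target genes had a median of 0.04. LAMA2, a laminin chain, had 51 and 32 reads (-0.83, -1.87 to 0.07), an interval that includes 0, among 14 laminin and basement membrane genes with a median of -0.05. HIST1H1C, a linker histone gene, had 27 and 47 reads (0.60, -0.41 to 1.66), an interval that also includes 0, and of 9 clustered replication histone genes 6 were above 0 with a median of 0.10. No member passed 1.5-fold in the NRF2 (26 genes), iron (15), ATF4 (26), unfolded protein response (16), heat shock (10), immediate early (24), imprinted (20), S-phase (25) or G2 and M-phase (24) lists, whose medians lay between -0.06 and 0.02. The 13 mitochondrially encoded genes were listed at the lowest value in both libraries.

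Of the 77 cytosolic ribosomal protein genes, all with at least 50 reads, 57 were above 0 and the median was 0.05. They were read 976817 times in the control and 1127166 times in the vitC library. Transcripts of this list are short, with a median of 785 bases, and against genes of like length and GC content the median was 0.03 with 54 of 77 above it.

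Several of the largest differences on the lower side were in genes with near copies. EIF3CL, a copy of the translation initiation factor gene EIF3C, had 1688 and 73 reads, a log2 ratio of -4.69. EIF3C itself, with which EIF3CL shares 98.7% of its words, had 531 and 878 reads (0.55, 0.32 to 0.77), the opposite direction. NOMO1 had 325 and 36 reads (-3.31) and its copy NOMO3 29 and 2, whereas the third copy NOMO2 had 443 and 457 (-0.13). The near-identical pair MAGED4B and MAGED4 had 163 and 21 and 205 and 57 reads. Reads of such genes depend on how the counting assigned them to copies, and the values are uncertain for that reason.

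Other genes among the lowest shared fewer words. FAM60A, a Sin3 complex subunit now named SINHCAF, had 507 and 64 reads, a log2 ratio of -3.14 (-3.74 to -2.63), with 19.3% of words shared. YTHDC1, a nuclear reader of m6A, had 473 and 136 reads (-1.97, -2.38 to -1.58) with none shared. UBR7, a histone H2B ubiquitin ligase, and ITPK1, an inositol phosphate kinase, which lie 90921 bases apart on chromosome 14, had 197 and 22 reads (-3.28) and 160 and 27 (-2.69). A clone-named gene among the 15 had 124 and 8 reads.

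Genes with deep coverage were also among the 15 lowest differences. ACTB, the cytoplasmic actin often used for normalisation, had 86778 and 81846 reads, a log2 ratio of -0.26 (-0.28 to -0.24), outside the middle 95% of genes of its depth. FAT1, a giant protocadherin, had 7294 and 6494 reads (-0.35), PRKDC, the catalytic subunit of DNA-PK, 11393 and 10502 (-0.29), and LPP, a focal adhesion protein, 3202 and 2725 (-0.41). FAT1, PRKDC and LPP have long transcripts, of 14776, 13459 and 18316 bases.

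On the higher side, LPCAT1, an acyltransferase that remodels phosphatidylcholine, had the largest difference on the deposited scale, with 73 and 290 reads, a log2 ratio of 1.80 (1.30 to 2.40). It lies on chromosome 5, bases 1456480 to 1523962, and shares no 50-base word with another gene. LSM14A, a processing-body protein, had 150 and 434 reads (1.35, 0.97 to 1.75). SPATC1L had 18 and 132 reads (2.63), LINC01315, a long non-coding RNA, 14 and 92 (2.46), and the histone H2A variant gene H2AFJ 109 and 263 (1.09). RN7SL2, a gene of the 7SL RNA of the signal recognition particle, had 144 and 363 reads (1.15) and RN7SL1 252 and 448 (0.65), and these copies share most of their sequence. RGPD8, from a family of near copies of RANBP2, had 37 and 155 reads (1.86), and RAD17, a checkpoint clamp loader, 62 and 197 (1.48). PPP4R4 had 0 and 37 reads, 5.45 times a floor of 3 fragments set for the control. ADAMTS8 had 0 and 25, 3.68 times the same floor. These folds are not lower limits: the counting intervals of the 2 genes began at log2 ratios of 1.96 and 1.30.

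Several of these genes lay within 1 Mb of other genes past 2-fold. How often this holds for other genes was not counted. On chromosome 16, RRN3, a factor of RNA polymerase I, had 4 and 73 reads (3.71) and PARN, a poly(A) ribonuclease, 82 and 235 (1.33). RRN3 and PARN are 427305 bases apart. Within 1 Mb of RRN3, NPIPA1 (1.16) and PKD1P6 (2.03) were also higher, while NOMO1 (-3.31), PDXDC1 (-1.43) and C16orf45 (-1.82) were lower. RRN3 shares 26.8% of its 50-base words with other annotated genes, NPIPA1 93.7% and PDXDC1 15.4%, so their values are uncertain. On chromosome 5, RAD17 (1.48) and CDK7 (-1.10) are 91863 bases apart. Of the genes with at least 500 reads, 0.708% of those sharing 10% or more of their words passed 1.5-fold either way, against 0.111% of those sharing less. With at least 50 reads these shares were 4.84% and 3.85%.

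Among the 18 genes with at least 500 reads that passed 1.5-fold, those not yet named were chosen by that count. CHEK2, a DNA damage checkpoint kinase, had 387 and 673 reads (0.62, 0.36 to 0.88). PTDSS2, a phosphatidylserine synthase, had 233 and 436 (0.72), and the read-through gene APITD1-CORT 176 and 328 (0.72). PIK3CD, a PI3-kinase subunit, had 341 and 232 reads (-0.73), TAF3, a TFIID subunit, 525 and 378 (-0.65), and HERC2, a large ubiquitin ligase, 638 and 478 (-0.59). PCDH11X had 344 and 244 reads (-0.67), FAM200B 557 and 418 (-0.59) and RP11-54H7.4 325 and 244 (-0.59).

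Of the 6530 genes with at least 1000 reads, 64 had a log2 ratio of 0.32 or more (0.98%) and 44 lay as far below 0 (0.674%). Their composition differed: the canonical transcripts of the higher genes had a median of 3104 bases and 58.1% GC, and those of the lower genes 5426 bases and 47.0% GC. Over the 11727 genes with at least 50 reads that matched the annotation, the median log2 ratio went from 0.04 in the shortest quartile of transcripts through 0.01 and -0.01 to -0.04 in the longest. By quartile of GC content it was -0.0022, -0.03, -0.02 and 0.06. The transcript of LEFTY1 has 1626 bases and 62.2% GC, and that of NODAL 2058 bases and 55.0% GC. The part of length and GC content in their ratios and in the ribosomal protein median was not tested.

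Repeat-derived reads kept their makeup. The control library had 507528 and the vitC library 549711 expected counts over all repeat subfamilies, 5.84% and 5.80% of the aligned library sizes of 8692246 and 9482130, and 93.9% and 93.8% of the counts were uniquely mapped. SINEs held 44.7% of the counts in the control and 45.1% with vitC, LINEs 26.7% and 26.5%, LTR elements 18.4% and 18.4%, and DNA transposons 9.25% and 9.18%. The exact 95% Clopper-Pearson limits of the SINE share were 44.6% to 44.9% in the control. The log2 ratios of these shares were 0.01 for SINEs (0.0035 to 0.02), -0.01 for LINEs (-0.02 to -0.00067), -0.0068 for LTR elements (-0.02 to 0.0061) and -0.01 for DNA transposons (-0.03 to 0.0070). Retroposons, here the SVA elements, went from 0.486% to 0.481%.

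Of 63 repeat families 24 had at least 1000 counts over both libraries, with log2 ratios from -0.05 to 0.10, and the counting interval of 5 excluded 0. The L1 family, LINEs of all ages together, had 96293 and 102396 counts, a log2 ratio of -0.03 (-0.04 to -0.01), and ERV1, a family of endogenous retroviruses, one of -0.03 (-0.05 to -0.01). MIR, an ancient SINE, was at 0.03 (0.0074 to 0.05), L2, an ancient LINE, at 0.03 (0.0034 to 0.05) and ERVL at 0.05 (0.0092 to 0.09). Alu, the most-read family with 36.4% and 36.6% of the counts, was at 0.0084 (-0.00073 to 0.02). Among the 158 subfamilies with 1000 counts, 0 had a log2 ratio of 0.32 or more (0%) and 0 lay as far below 0 (0%), and they ran from -0.26 for L1MDa to 0.21 for HERV9NC-int, the internal part of an ERV1 element. Part of the reads of old repeats lies in transcripts of genes.

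**Figure D3:**
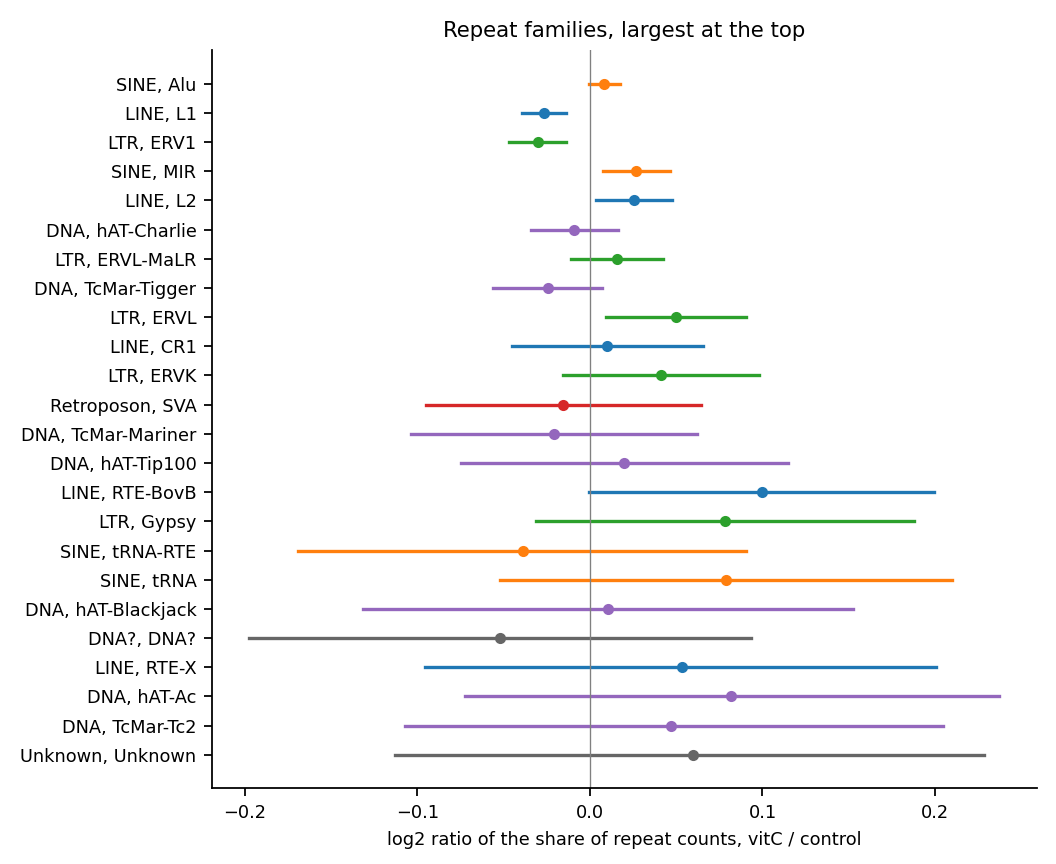
Log2 ratio of the share of repeat counts, vitC over control, for the 24 families with at least 1000 counts, ordered from the most counts at the top and coloured by class; the lines are 95% intervals from counting error alone. Points lie between -0.05 and 0.10, and the largest families, Alu and L1, are at 0.0084 and -0.03.

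Values of the mESC pairs were set beside those of the hESC pair. The tables were normalised separately and the RNA labels differ, so no test of the difference was made. In mESCs 120 of 12464 genes with 50 reads (0.963%) were at least 1.5-fold higher in each of the 4 numbered pairs, and 31 (0.249%) at least 1.5-fold lower. Of the 120, 42 had a gene of the same symbol with at least 50 reads in hESCs, where 24 were above 0, 3 at least 1.5-fold higher and 3 at least 1.5-fold lower, with a median of 0.05. Over all hESC genes with 50 reads, 2.5% were at least 1.5-fold higher and 1.99% at least 1.5-fold lower, with a median of 0.0028. The 3 higher were LPCAT1, LPL and AKAP6, and the 3 lower CYB5R2, MGAT4C and KCNF1. LPCAT1 was at 1.04 ± 0.15 (SD, n = 4 pairs) in mESCs against 1.80 in hESCs. LPL, lipoprotein lipase, was at 1.29 ± 0.08 in mESCs and had 20 and 60 reads in hESCs, a log2 ratio of 1.36 (0.34 to 2.60). Of the 31 lower in mESCs, 18 had 50 reads in hESCs, 14 were above 0 there and none passed 1.5-fold.

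DAZL, RPL39L, LDHA and LGALS1, which differed in all 4 mESC pairs, lay near 0 in hESCs. DAZL, a germ cell RNA-binding protein gene, was at 1.96 ± 0.15 in mESCs (higher in 4 of 4 pairs), and had 36 and 42 reads in hESCs, a log2 ratio of 0.04 (-0.93 to 1.04). RPL39L was at 1.72 ± 0.10 in mESCs and at 0.12 (-0.26 to 0.48) in hESCs, with 226 and 277 reads. LDHA was at -0.79 ± 0.11 in mESCs, lower in all 4 pairs, and at 0.03 in hESCs. LGALS1, a galectin, was at -0.82 ± 0.23 in mESCs and at -0.04 in hESCs, with 1271 and 1397 reads. LAMA3 and CAMK2B had at most 10 reads in any hESC library, 9 and 7 and 10 and 9, too few for a difference to be detectable. The 4 germline genes read in both species had a median of 1.42 ± 0.19 in mESCs and 0.10 in hESCs.

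Both LEFTY genes lay below 0 in mESCs. LEFTY1 was at -1.31 ± 0.65 and LEFTY2 at -1.37 ± 0.45, each lower in all 4 pairs, with 9 to 135 and 22 to 420 reads per library. NODAL was at -0.22 ± 0.24, higher in 1 of 4 pairs, and NOTUM at -0.37 ± 0.13, lower in all 4. Over the 20 WNT, BMP and TGF-beta feedback genes read in both, the median was -0.14 ± 0.09 in mESCs and 0.12 in hESCs. The mESCs were grown with inhibitors of MEK and GSK3, a different signalling setting, and the part of medium, species and RNA selection in this contrast cannot be told apart.

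**Figure D4:**
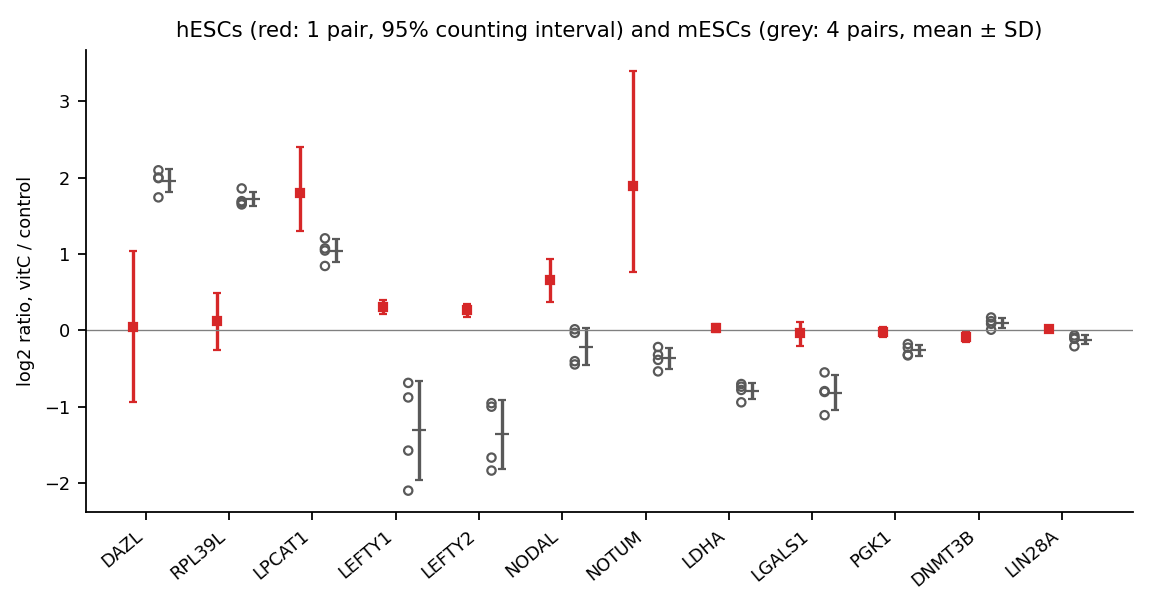
Log2 ratio of vitC over control for 12 genes in hESCs (red squares, 1 pair, bars are the 95% counting interval) and mESCs (open circles for the 4 pairs, with mean ± SD). LPCAT1 is above 0 in both, LEFTY1 and LEFTY2 lie on opposite sides of 0, and DAZL, RPL39L, LDHA and LGALS1 are away from 0 in all 4 mESC pairs while their hESC intervals include it.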

How the data were processed

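RNA-seq of 1 control and 1 vitC-treated H9 hESC library was used, with 4 control and 4 vitC mESC libraries beside them; groups and pair numbers come from the labels. The submitters' processing notes name Trim Galore, HISAT2, DESeq2, mm10 and hg38, and the methods name SQuIRE for counting; versions are not given in the sources used here. The authors deposited variance-stabilised gene values on a log2-like scale, and, for repeat subfamilies, expected counts (total), uniquely mapped counts and aligned library sizes. 3 other columns of per-sample values were not used. Labels name a directional kit and either rRNA depletion or mRNA isolation, not which for each library.

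Inverting the transformation gave whole reads (tolerance 0.01) for 100% of values in both hESC libraries, 15367652 and 17188555, which is 1.77 and 1.81 per aligned fragment, so 2 reads were taken as 1 fragment in intervals. On simulated data of 35720 genes the step recovered 100% of reads. The comparison laid down called genes on the deposited scale; as this compresses low genes, log2 ratios of recovered reads (pseudocount 1, scaled by the authors' factor of 1.13) at 50 reads or more were used beside it. No p-value was computed. Shares have exact 95% Clopper-Pearson limits, and intervals cover counting error only. Floors (3 fragments) replace a control count of 0 and leave out the counting error of the vitC reads. Named genes were the 15 largest and 15 smallest deposited differences, list members past 1.5-fold, up to 4 most-read members of each list, cell type markers, and counterparts of 6 genes reported in mESCs, with other genes added after their values were seen. Genes and 35 lists were chosen with earlier results of these data known. Transcript length, GC content, positions and shared 50-base words come from GENCODE release 44 on hg38, in which 15409 genes (75.2%) matched by symbol. A few named genes are not reported here. Python 3.11.15, numpy 2.4.6, pandas 2.3.3, scipy 1.17.1 and matplotlib 3.10.9 were used. Alternatives changed the scale, pseudocount, scaling, read minimum, fold and repeat denominator, and left out each mESC pair.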

Additional observations from a re-analysis of the deposited data

Results flagged for a closer look

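Of the 139 named genes with at least 50 reads in both tables, 19 lay on one side of 0 in all 4 mESC pairs while the hESC counting interval lay wholly on the other side, and 16 lay wholly on the same side in both. The difference between hESCs and mESCs was not tested, and the hESC interval holds counting error only, for 1 pair of libraries. In hESCs LEFTY1 was at 0.30 and LEFTY2 at 0.26, against -1.31 ± 0.65 and -1.37 ± 0.45 in mESCs (SD, n = 4 pairs). NOTUM was at 1.90 in hESCs and at -0.37 ± 0.13 in mESCs, NANOG at 0.22 and -0.27 ± 0.15, RRN3 at 3.71 and -0.08 ± 0.04, and H2AFJ at 1.09 and -0.27 ± 0.11. Human RRN3 and NANOG share 26.8% and 27.7% of their 50-base words with other annotated genes, so their hESC values are uncertain. Smaller hESC values above 0 against mESC values below it were those of IFITM1 (0.26), PCNA (0.12), COL18A1 (0.0804) and KRT8 (0.0731). On the opposite side, TFAP2C was at -0.37 in hESCs and at 0.36 ± 0.05 in mESCs, FAT1 at -0.35 and 0.19 ± 0.13, and LPP at -0.41 and 0.33 ± 0.21. LAMC1 (-0.19), KDM3B (-0.14), DNMT1 (-0.0907), FTH1 (-0.0908), DNMT3B (-0.0889) and SLC7A5 (-0.0597) were also below 0 in hESCs and above it in the mESC pairs.

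In 9 of the 139 genes 1 mESC pair stood apart from the other 3 by Dixon's criterion, which chance alone gives for about 1 in 20 groups. The gap to the nearest pair as a share of the whole range was 0.973 for HDAC2, 0.935 for DNMT1, 0.872 for PKM, 0.863 for MCM4, 0.855 for AEN, 0.853 for KDM5C and 0.850 for KDM3B, with the lowest pair apart, and 0.886 for NCOA4 and 0.844 for CCNG1, with the highest pair apart.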

How the results depend on the processing

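The counts of genes past 1.5-fold depended on the scale. Against 0 higher and 3 lower on the deposited values, log2 ratios of recovered reads gave 3112 and 2631 with a pseudocount of 1 read, 1584 and 1227 with 5 reads, and 3170 and 2609 relative to the library's gene reads, mostly genes of few reads. With both recovered reads and a minimum, alternatives chosen after seeing the data, they gave 330 and 263 at 50 reads and 7 and 11 at 500. On the deposited values a minimum of 0.32 gave 7 lower, and 0 were lower among genes sharing under 10% of their words, also chosen after seeing the data. Relative to the aligned library size the SINE log2 ratio was 0.0015, and relative to recovered gene reads SINEs were at -0.0346, LINEs at -0.0577, LTR elements at -0.0531 and DNA transposons at -0.0576. On the deposited scale 40 of 185 named-gene values moved by more than their counting error. Leaving out any 1 mESC pair moved none of 29 mESC list medians by more than their SD. No paired analysis was possible because hESCs have 1 library per condition and nothing was tested. Single genes under about 100 reads are limited by depth.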
